A study of Mus musculus with 15 samples.

Results

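A set of 10 genes of the integrated stress response and of serine synthesis was described in endothelial cells sorted from mouse hearts. The rule took, by gene symbol, the entries for Atf4, Trib3, Chac1, Sesn2, Ddit4, Asns, Phgdh, Psat1, Shmt2 and Mthfd2 from a count table of 23337 genes. Of all genes in the table, 12471 had enough counts to be tested, and 9 of the 10 were among them. Phgdh was not, with 26 counts over all libraries together. Each of the 9 also passed the count filter on the 8 WT libraries alone and on the 7 KO libraries alone, so no gene entered the test through a single genotype. The 10 genes were chosen by their names with results of these data known, their counts and differences between these groups among them. Their own differences are therefore given as a description of these libraries, including the p-values, and nothing is supported with them.

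RNA was sequenced from CD45- CD31+ cells taken by flow cytometry, a gate that keeps endothelium and drops leukocytes. The KO TAC group had 4 mice and the KO sham group 3, all Cad5CreERT2+/+STINGfl/fl, and the WT TAC group had 5 mice and the WT sham group 3, all Cad5CreERT2-/-STINGfl/fl. Every mouse, WT included, thus carried loxP-flanked alleles of STING, an adaptor of the innate response to cytosolic DNA. The KO mice also carried a Cre recombinase that tamoxifen activates and that the endothelial Cad5 promoter drives. Surgery was transverse aortic constriction (TAC), which narrows the aorta and loads the left ventricle, or a sham operation, and cells were isolated 4 weeks later. Age, sex and tamoxifen treatment are not given in the sources used here. No WT mouse carried the recombinase, so loss of STING and presence of the recombinase cannot be told apart.

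Total counts ran from 1362346 in WT sham 133 to 15670319 in WT TAC 134. KO sham 348 and KO sham 350 stood apart, with no count for 211 and 312 genes that had an expected count of 10 or more. The other libraries had 3 to 21 such genes. Fold changes of the members that rest on KO sham are therefore also given without this pair. Leaving it out keeps KO sham 349 as the only KO sham mouse. Such values rest on a group without replicates, so only their size is given. The gene for STING, named Tmem173 in the table, averaged 26.8 ± 4.89 CPM (counts scaled to library size) in KO TAC and 74.7 ± 4.55 CPM in WT TAC (SD), and 23.9 ± 7.14 CPM in KO sham and 58.7 ± 6.16 CPM in WT sham. The 10 endothelial markers summed to 14000 to 14660 CPM in KO TAC, 15690 to 17360 CPM in KO sham, 15400 to 16860 CPM in WT TAC and 14920 to 16270 CPM in WT sham, so KO TAC lay below the other groups. In KO TAC against WT TAC 4 of them were lower and 1 higher, while 29.8% of all genes tested passed in either direction. Tek and Tie1, receptors of the angiopoietin pathway, had log2 fold changes of -0.99 and -0.64. Kdr, a VEGF receptor, was at -0.47, and Pecam1, which encodes CD31, at 0.19. The 11 cardiomyocyte markers summed to 117.5 to 194.4 CPM in KO TAC and 236.3 to 272.2 CPM in WT TAC. In sham hearts they summed to 252.9 to 359.8 CPM in KO and 298.7 to 349.9 CPM in WT. The 10 fibroblast markers summed to 200.9 to 323.4 CPM in KO TAC and 478 to 748.4 CPM in WT TAC. In sham hearts these summed to 147.2 to 412.1 CPM in KO and 184.6 to 387.5 CPM in WT. Leukocyte markers summed to at most 13.5 CPM in any library. Of 4 tested, 1, Cd68, was higher in KO TAC than in WT TAC, at log2 fold changes of 1.18 to 1.8 with 1 library left out. Markers of pericytes and smooth muscle, the mural cells, summed to 119.3 to 178.1 CPM in KO TAC and 133.5 to 185.6 CPM in WT TAC. In sham hearts they summed to 164.2 to 258.9 CPM in KO and 132.4 to 170 CPM in WT. The similar mural sums of KO TAC and WT TAC held opposite changes among the 9 mural markers tested. Tagln, Myh11 and Acta2, of the contractile apparatus, were higher in KO TAC by log2 fold changes of 1.85, 1.78 and 1.18. Des and Rgs5 were lower at -0.76 and -0.41, calls lost without KO TAC 352 (edgeR adjusted p = 0.0584 and 0.0809). In KO TAC against KO sham 4 of 10 endothelial, 4 of 11 cardiomyocyte and 3 of 9 mural markers tested were lower and 0 higher. Of the 10 fibroblast markers 2 were higher and 1 lower. In KO sham against WT sham 3 mural markers were higher, 2 endothelial markers higher and 2 lower, and 1 fibroblast marker lower. Over all genes tested, 9.59% and 9.21% passed in these 2 comparisons. Some of these calls were lost without single libraries. The part of these marker traces in the results below was not tested. In bulk samples, fewer cells of a type and less RNA per cell cannot be told apart.

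The integrated stress response begins when a kinase, such as GCN2 for amino acid shortage or PERK for misfolded protein in the endoplasmic reticulum, phosphorylates the translation factor eIF2. General translation then falls, while the mRNA of the transcription factor ATF4 is translated more. ATF4 switches on genes for amino acid uptake, amino acid synthesis and tRNA charging, along with brakes on the response and on growth. Serine is made from a glycolytic intermediate, and mitochondria take its side carbon into the folate cycle, which feeds nucleotide synthesis. Because ATF4 is controlled at translation, its mRNA level alone does not show its activity.

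Sesn2, Psat1 and Mthfd2 were higher in KO TAC than in WT TAC, by 7.4-fold, 2.76-fold and 3.32-fold, and their libraries did not overlap. The groups of that comparison thus did not overlap for 3 of the 9 tested members, beside 30.7% of all genes tested. Ddit4 was lower in KO TAC than in WT TAC, at 0.575 of its level, with overlapping libraries. Atf4, Trib3, Chac1, Asns and Shmt2 did not pass the test in that comparison. In sham hearts Sesn2 was 5.08-fold higher in KO than in WT, and Shmt2 1.5-fold higher. TAC went with higher Psat1 and Mthfd2 in KO mice, and with no member past the test in WT mice. The calls on Ddit4, on Shmt2, and on Psat1 and Mthfd2 in KO TAC against KO sham were each lost without some single libraries, as given with each gene. The 9 tested genes thus split, and their median log2 fold change in KO TAC against WT TAC was -0.20, beside -0.02 over all genes tested.

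**Figure D1:**
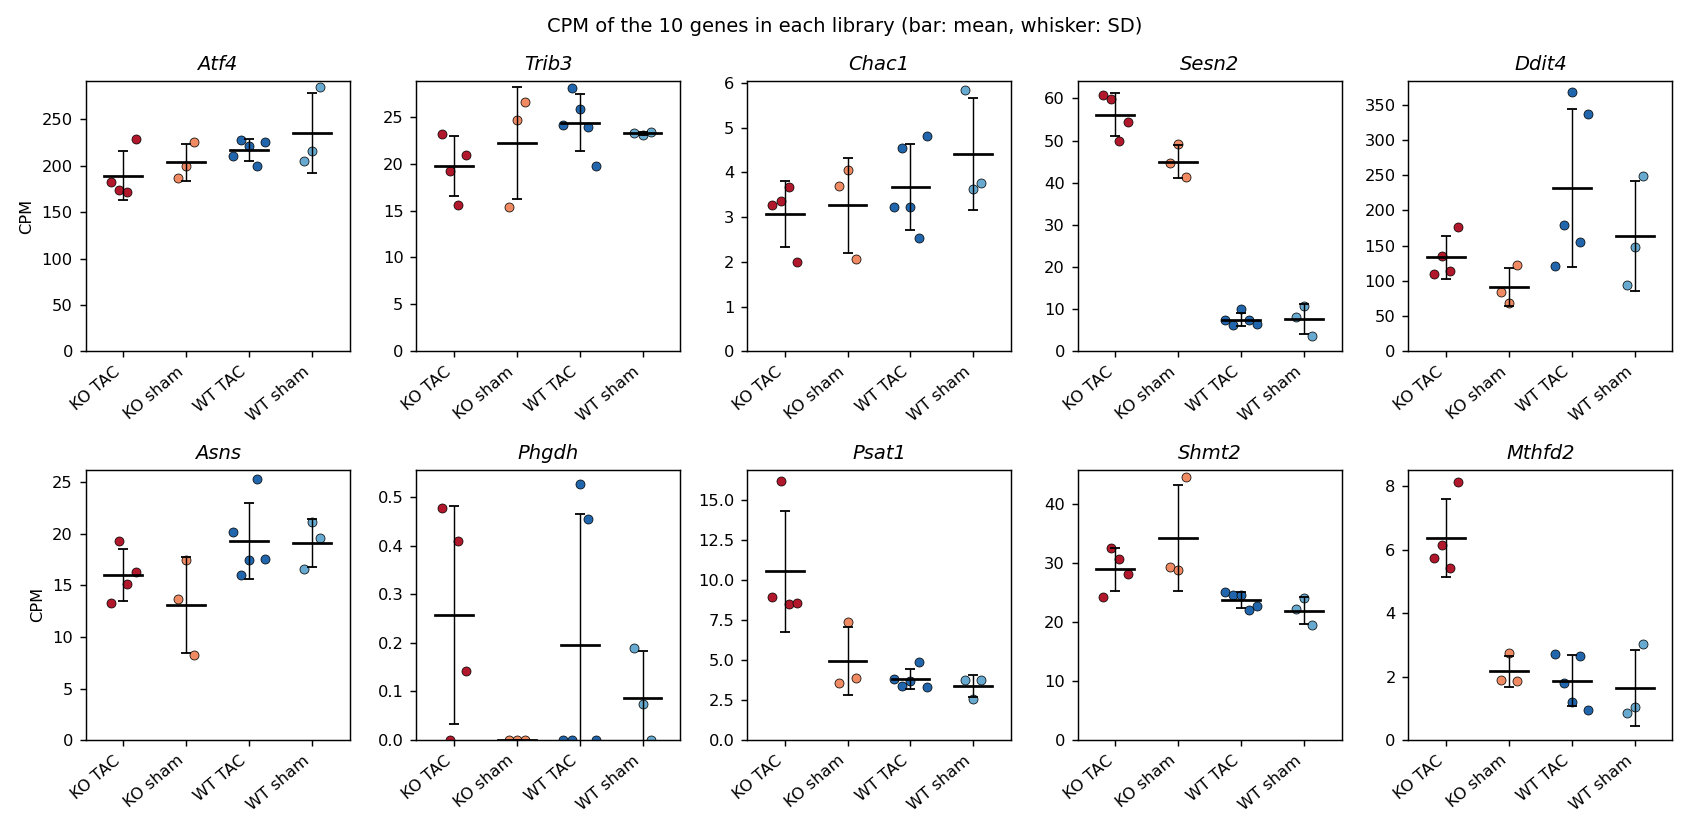
CPM of each of the 10 genes (vertical axes, linear) in every library, with 1 point per mouse, a bar at the group mean and a whisker of 1 SD, for KO TAC, KO sham, WT TAC and WT sham. The 7 KO libraries lie at 41.3 to 60.7 CPM for Sesn2 and the 8 WT libraries at 3.76 to 10.8 CPM, while Atf4 spans 171.8 to 285.2 CPM with overlapping groups.

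The share of all tested genes past the threshold, an adjusted p under 0.05 in edgeR over 12471 genes, sets the scale for these counts. In KO TAC against WT TAC 29.8% of all genes passed, and 4 of the 9 members did, 3 higher and 1 lower. In KO sham against WT sham 9.21% of all genes passed, and 2 of the 9 members did, both higher. In KO TAC against KO sham 9.59% of all genes passed, and 2 of the 9 members did, both higher. In WT TAC against WT sham 2.59% of all genes passed, and 0 of the 9 members did in edgeR, with 0 at an unadjusted p under 0.05 and 0 in DESeq2 and limma voom. For the difference of the TAC effects, KO minus WT, 0.69% of all genes passed and 0 members did in edgeR, with 0 in DESeq2 and limma voom and 1, Sesn2, at an unadjusted p under 0.05. These comparisons share libraries: each group enters more than 1 of them, so their counts are not independent of each other.

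**Figure D2:**
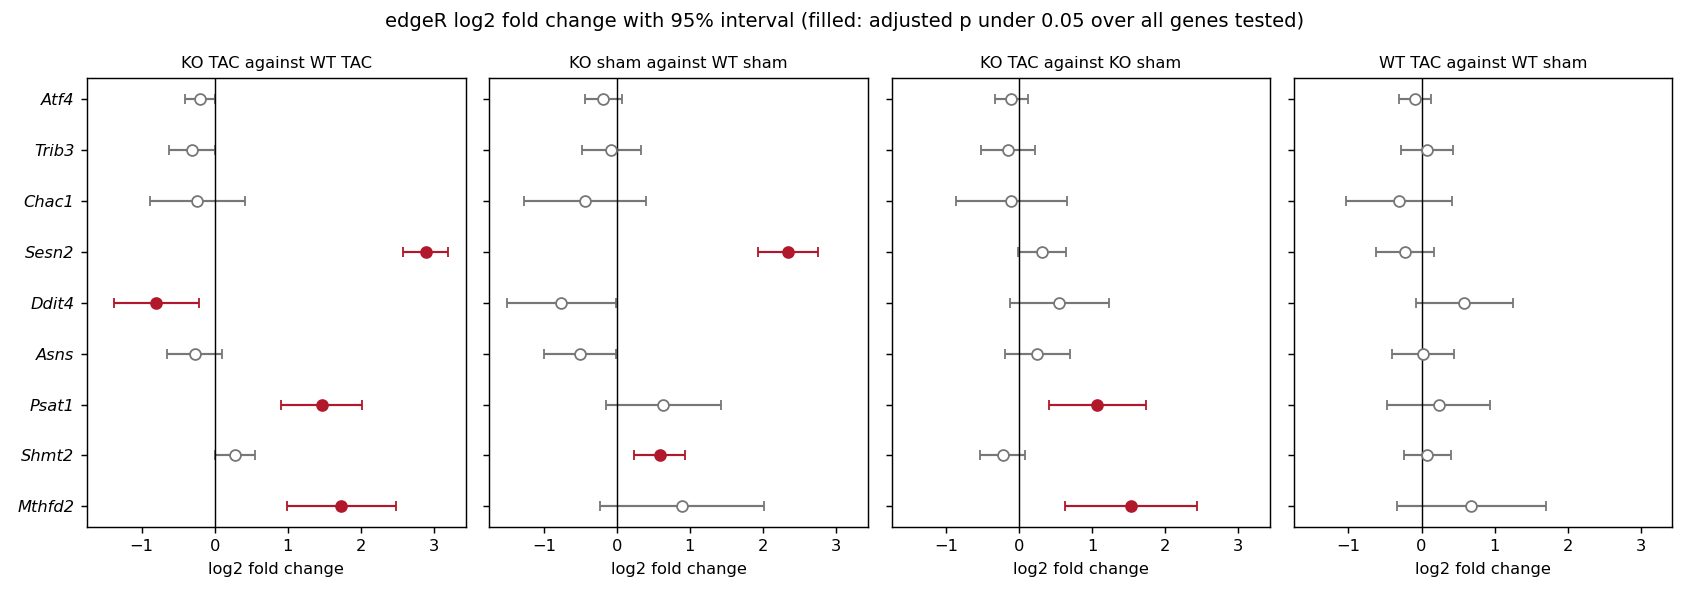
Log2 fold change (horizontal axes) of the 9 tested genes in 4 comparisons, with 95% intervals from edgeR, filled red where the adjusted p over all genes was under 0.05. Sesn2 lies at 2.89 in KO TAC against WT TAC and at 2.35 in KO sham against WT sham, and the WT TAC against WT sham panel holds no filled point.

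Atf4 encodes the transcription factor at the centre of the response and had the highest level per length of the 10 genes, 122.2 RPKM (CPM divided by gene length in kilobases) over all libraries. The gene lies on chromosome 15, from 80255184 to 80257541 on the plus strand of mm10. It had 182.6, 174.4, 171.8 and 228.6 CPM in the KO TAC libraries 351 to 354, and 210.9, 228.2, 221 and 200 CPM in WT TAC 134 to 137 with 225.5 CPM in WT TAC 138. KO sham had 186.3, 199.8 and 225.4 CPM and WT sham 205.2, 216.1 and 285.2 CPM. KO TAC 354 was the highest KO library and reached the WT range, so the groups overlapped. The log2 fold change was -0.20 ± 0.10 (SE) in KO TAC against WT TAC (edgeR adjusted p = 0.126), with a 95% interval of -0.40 to 0.00. Without KO TAC 354 the adjusted p was 0.0275, at a log2 fold change of -0.28. With limma voom the adjusted p was 0.0412. The value in sham hearts, KO against WT, was -0.18 ± 0.12 (edgeR adjusted p = 0.369), and -0.21 without KO sham 348 and 350.

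Trib3 and Chac1 are feedback genes of the pathway. Trib3 encodes a pseudokinase that binds ATF4 and damps it, and Chac1 an enzyme that breaks down glutathione. Trib3 (chromosome 2, 152337425 to 152344060, minus strand) had 23.1, 19.2, 15.5 and 21 CPM in KO TAC, against 24.1, 28.1, 25.9, 23.9 and 19.8 CPM in WT TAC. In sham hearts it had 15.4, 24.6 and 26.5 CPM in KO and 23.3, 23 and 23.3 CPM in WT. The WT sham mice were nearly alike, and KO sham spread on both sides of them. The log2 fold change of KO TAC against WT TAC was -0.31 ± 0.15 (edgeR adjusted p = 0.133). It passed with limma voom (adjusted p = 0.0382) and without KO sham 348 and 350 (edgeR adjusted p = 0.0487), at -0.32 and -0.30.

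Chac1 (chromosome 2, 119351242 to 119354327, plus strand) was scarce, with 3.27, 3.36, 3.68 and 2 CPM in KO TAC and 3.23, 4.55, 3.23, 2.54 and 4.81 CPM in WT TAC. KO sham had 3.69, 4.06 and 2.06 CPM and WT sham 5.85, 3.62 and 3.76 CPM. The groups overlapped, and the log2 fold change of KO TAC against WT TAC was -0.23, with a 95% interval of -0.89 to 0.42. Changes inside that interval were compatible with these libraries, and no detection limit was computed.

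Asns encodes asparagine synthetase, an enzyme often used as a readout of amino acid shortage, and lies on chromosome 6 from 7675171 to 7693182 on the minus strand. It had 13.2, 19.3, 15.1 and 16.3 CPM in KO TAC and 20.1, 16, 17.4, 25.4 and 17.6 CPM in WT TAC. KO sham had 13.6, 17.4 and 8.23 CPM and WT sham 16.6, 21.1 and 19.6 CPM. KO sham 350, a library that stood apart, was the lowest of all 15. The log2 fold changes were -0.27 ± 0.18 in KO TAC against WT TAC (edgeR adjusted p = 0.275) and -0.50 ± 0.24 in KO sham against WT sham (edgeR adjusted p = 0.195). Without KO sham 348 and 350 the sham value was -0.13, and without KO sham 349 it was -0.76 (edgeR adjusted p = 0.0456).

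ATF4 acts with partner proteins at composite sites, and the core TGATGNAA, where N is any base, is the shared part of the amino acid response elements through which it works. The windows of 250 bases before to 50 after each gene's start, from RefSeq on GRCm38.p6, were searched for this core on both strands. Its reverse complement is TTNCATCA. All 10 genes had a window, and their starts lay within 50 bases of the starts in the count table's annotation. Chac1, Asns and Trib3 held the core, 3 of 10, beside 4.51% of 27025 genes with a window. The stretches are shown because these are the members with the core next to their start. They are written 5′ to 3′ on the strand of the gene, with the core in capitals, Chac1 and Trib3 holding it on the opposite strand.
Chac1, chr2:119351025-119351080, plus strand: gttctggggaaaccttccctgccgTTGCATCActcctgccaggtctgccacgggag
Asns, chr6:7693210-7693256, minus strand: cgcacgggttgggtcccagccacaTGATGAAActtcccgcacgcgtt
Trib3, chr2:152344028-152344057, minus strand: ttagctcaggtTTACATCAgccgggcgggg
The core begins 193 bases before the start in Chac1, 23 bases before it in Asns and 14 bases after it in Trib3. No match was found in the windows of Atf4, Sesn2, Ddit4, Phgdh, Psat1, Shmt2 or Mthfd2, which says only that these letters are not there. The full cyclic AMP response element, TGACGTCA, was in 1.79% of the 32851 windows and in no window of the 10 genes. Among genes outside the members, 9 of 21 other target genes with a window held the core, among them Atf3, Herpud1 and Pck2. So did 5 of 7 tRNA synthetases known as ATF4 targets (Aars, Gars, Iars, Tars and Yars), 2 of 8 amino acid transporters and 0 of 22 other serine and one-carbon genes. A match is a description of the sequence and was not tested for binding. The members with the core (Chac1, Asns and Trib3) had log2 fold changes of -0.23, -0.27 and -0.31 in KO TAC against WT TAC, and none passed the test.

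Sesn2 had the largest difference of the 10 genes. It encodes sestrin 2, a leucine-binding protein that holds back mTORC1, the kinase complex that promotes growth, and its gene is a known target of ATF4 and of p53. It lies on chromosome 4, from 132492807 to 132510456 on the minus strand. The KO TAC libraries had 60.7, 59.8, 49.8 and 54.3 CPM, and the WT TAC libraries 7.41, 6.28, 10, 7.45 and 6.6 CPM. The KO sham libraries had 44.6, 49.1 and 41.3 CPM, and the WT sham libraries 8.21, 10.8 and 3.76 CPM. Each KO library thus lay above each WT library, with the lowest KO value, 41.3 CPM, beside the highest WT value, 10.8 CPM. The WT sham value of 3.76 CPM came from 5 counts in WT sham 133, the shallowest library.

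Between KO TAC and WT TAC the log2 fold change of Sesn2 was 2.89 ± 0.15 (edgeR adjusted p = 9.06e-12), and 6 of the 12471 genes had a smaller p. Between KO sham and WT sham it was 2.35 ± 0.20 (edgeR adjusted p = 1.71e-07), and 2.44 without KO sham 348 and 350. With any 1 library left out it stayed between 2.83 and 3.02 in TAC hearts and between 2.23 and 2.63 in sham hearts. TAC itself went with a log2 fold change of 0.32 ± 0.16 in KO mice (edgeR adjusted p = 0.22) and of -0.23 ± 0.19 in WT mice (edgeR adjusted p = 0.662). The difference of these effects, 0.54 ± 0.25, did not pass the test (edgeR adjusted p = 0.312). Without KO sham 348 and 350 the effect in KO mice was 0.20 and the difference 0.45. The KO TAC and KO sham libraries nevertheless did not overlap, at 49.8 to 60.7 CPM in KO TAC and 41.3 to 49.1 CPM in KO sham. Among all genes tested, 17.6% had groups that did not overlap in that comparison.

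The tested genes on either side of Sesn2 were looked up after its values were seen. Med18, a Mediator subunit, had a log2 fold change of -0.56 ± 0.23 in KO TAC against WT TAC (edgeR adjusted p = 0.0705) and of -0.15 in KO sham against WT sham. Atpif1, an inhibitor of the mitochondrial ATP synthase, had 0.24 (edgeR adjusted p = 0.19) and -0.31 (edgeR adjusted p = 0.295). Neither neighbour passed the test in these comparisons.

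The other sestrin genes were set beside Sesn2. Sesn1, a relative of Sesn2 with the same action on mTORC1, fell in KO TAC against WT TAC, by 0.66 on the log2 scale with an SE of 0.10 (edgeR adjusted p = 3.76e-05). It averaged 6.96 ± 0.429 RPKM in KO TAC and 11 ± 0.702 RPKM in WT TAC (SD), and the libraries did not overlap, at 21.1 to 24.3 CPM in KO TAC and 33.5 to 38.8 CPM in WT TAC. In sham hearts Sesn1 averaged 9.08 RPKM in KO and 11.3 RPKM in WT. The log2 fold change there was -0.34 ± 0.13 (edgeR adjusted p = 0.0986), and -0.35 without KO sham 348 and 350. Sesn1 was also lower in KO TAC than in KO sham, at -0.43 to -0.32 with 1 library left out. That call was lost without several single libraries, with an edgeR adjusted p of up to 0.115 without KO TAC 351. Sesn2 by comparison averaged 21.1 ± 1.91 RPKM in KO TAC, 16.9 ± 1.47 RPKM in KO sham, 2.84 ± 0.55 RPKM in WT TAC and 2.86 ± 1.34 RPKM in WT sham. Per length, Sesn2 was therefore above Sesn1 in both KO groups and below it in both WT groups. Sesn3 averaged 2.65, 1.24, 2.06 and 1.57 RPKM in KO TAC, KO sham, WT TAC and WT sham, and passed in none of the 5 comparisons.

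**Figure D3:**
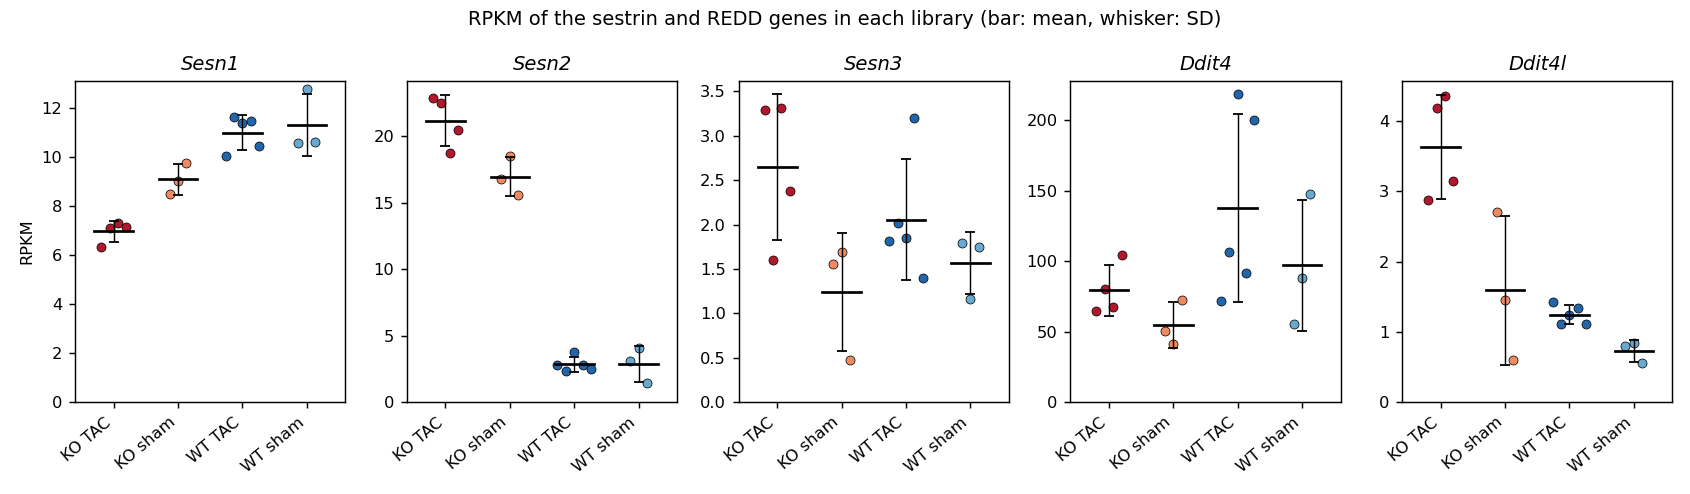
RPKM (vertical axes, linear) of the 3 sestrin genes and of Ddit4 and its relative Ddit4l in every library, with 1 point per mouse, a bar at the group mean and a whisker of 1 SD. Sesn2 is at about 17 to 21 RPKM on average in the KO groups and below 3 RPKM in the WT groups, Sesn1 is lowest in KO TAC, and Ddit4 varies most among WT TAC mice.

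Ddit4 encodes REDD1, which restrains mTORC1 through the TSC complex and is induced by hypoxia, glucocorticoids and ATF4. It lies on chromosome 10, from 59949675 to 59951770 on the minus strand. KO TAC had 109.1, 135, 113.9 and 175.8 CPM, and WT TAC 121.1, 179, 368.4, 154.7 and 336.6 CPM. KO sham had 84.6, 69.1 and 121.9 CPM, and WT sham 93.6, 148.7 and 248.3 CPM. The WT mice 136 and 138 were the highest, and the groups overlapped in every comparison. Ddit4 had the widest spread of the 9 tested genes within groups, an SD of 0.574 on the log2 scale, beside 0.228 for the median gene.

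Between KO TAC and WT TAC the log2 fold change of Ddit4 was -0.80 ± 0.28 (edgeR adjusted p = 0.0354). Without WT TAC 136 it was -0.56 (edgeR adjusted p = 0.145), and without WT TAC 138 -0.63 (edgeR adjusted p = 0.109). The call was also lost without KO TAC 351, 352 or 353 (edgeR adjusted p = 0.108, 0.0793 and 0.107) and in DESeq2 (adjusted p = 0.119). Between KO sham and WT sham the log2 fold change was -0.76 ± 0.36 (edgeR adjusted p = 0.199). TAC went with 0.55 ± 0.33 in KO and 0.59 ± 0.32 in WT mice, neither past the test. Without KO sham 348 and 350 the sham value was -1.14 and the TAC effect in KO mice 0.95.

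Its relative Ddit4l encodes REDD2. Ddit4l rose in KO TAC against WT TAC, by a log2 fold change of 1.54 ± 0.29 (edgeR adjusted p = 0.000351). It had 7.81, 11.4, 11.9 and 8.55 CPM in KO TAC, against 3.86, 3.01, 3.38, 3.63 and 3.02 CPM in WT TAC, with no overlap. In sham hearts it had 7.37, 3.96 and 1.6 CPM in KO and 2.17, 2.29 and 1.5 CPM in WT. The sham groups overlapped, and Ddit4l did not pass between them. It was higher in KO TAC than in KO sham, at 0.82 to 1.73 on the log2 scale with 1 library left out. That call was lost without KO TAC 353 (edgeR adjusted p = 0.109). Trib1, a relative of Trib3, did not pass in KO TAC against WT TAC, with a log2 fold change of 0.16 ± 0.14 (edgeR adjusted p = 0.425).

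Genes that respond to the other signals known to induce Ddit4 were counted beside it. Over all genes tested, 29.8% passed in KO TAC against WT TAC and 9.21% in KO sham against WT sham. Of 13 hypoxia-inducible genes tested, 1 was higher and 4 were lower in KO TAC than in WT TAC. Vegfa, the endothelial growth factor, was higher by 0.66 on the log2 scale, and Egln1, an oxygen-sensing hydroxylase, and Ndrg1 were lower by log2 fold changes of -0.93 and -0.60. Of 8 glucocorticoid-inducible genes, 1 was higher and 2 were lower, among them Tsc22d3, at -0.62 ± 0.19 (edgeR adjusted p = 0.0158), a call lost without WT TAC 138 (0.0624), KO TAC 351 (0.0714) or KO TAC 353 (0.0589) and in DESeq2 (0.0723). With 1 library left out the count of this list ran from 1 to 3. Of 14 immediate early genes, which dissociation of tissue also induces, 1 was higher and 5 were lower, and the list summed to 3949 to 5153 CPM in KO TAC and 4099 to 6542 CPM in WT TAC. Between KO sham and WT sham 6 of these 14 were lower and 0 higher, and the count ran from 1 to 6 with 1 library left out. With 1 library left out the count of immediate early genes in KO TAC against WT TAC ran from 5 to 10. Their part in the Ddit4 values was not tested.

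Phgdh encodes phosphoglycerate dehydrogenase, the entry step of serine synthesis, and was close to absent. It lies on chromosome 3, from 98313171 to 98339969 on the minus strand. It had 6, 0, 4 and 1 counts in KO TAC, against 0, 0, 7, 5 and 0 counts in WT TAC. KO sham had 0 counts in each of its 3 libraries, and WT sham had 2, 1 and 0. A count of 0 allows up to 3 counts, which is 0.304 to 0.617 CPM in the KO sham libraries and 2.26 CPM in WT sham 133. No difference in Phgdh was detectable at this depth, and no fold is given.

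Psat1 encodes phosphoserine aminotransferase, the next enzyme of the route, on chromosome 19 from 15905123 to 15925059 on the minus strand. KO TAC had 8.93, 16.2, 8.49 and 8.56 CPM, and WT TAC 3.8, 3.41, 3.68, 4.91 and 3.3 CPM. KO sham had 3.57, 7.4 and 3.91 CPM, and WT sham 3.77, 2.59 and 3.76 CPM. Each KO TAC library was above each library of the other groups, and KO TAC 352 lay far above the rest of its group.

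The log2 fold change of Psat1 in KO TAC against WT TAC was 1.47 ± 0.27 (edgeR adjusted p = 0.000269), and 1.19 without KO TAC 352 (edgeR adjusted p = 0.00371). For KO TAC against KO sham it was 1.07 ± 0.32 (edgeR adjusted p = 0.0379). That call was lost without KO sham 348 (0.117), KO sham 350 (0.082), KO TAC 352 (0.159) or KO TAC 353 (0.05004). It was also lost with limma voom (0.35) and in a fit of the compared groups alone (0.143). Without KO sham 348 and 350 together the log2 fold change for KO TAC against KO sham was 0.52. Between KO sham and WT sham the log2 fold change was 0.64 ± 0.38 (edgeR adjusted p = 0.316). The difference of the TAC effects was 0.83 ± 0.46 (edgeR adjusted p = 0.427). Without KO sham 348 and 350 the sham value was 1.2 and the difference 0.28.

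Psph, the phosphatase that ends the route, passed in none of the comparisons of KO with WT. It averaged 5.14 CPM in KO TAC, 3.45 CPM in KO sham, 5.54 CPM in WT TAC and 4.57 CPM in WT sham, with a log2 fold change of -0.11 ± 0.29 in KO TAC against WT TAC (edgeR adjusted p = 0.82). Per length, the enzymes of the route averaged 0.138 RPKM for Phgdh, 4.24 RPKM for Psat1 and 3.35 RPKM for Psph in KO TAC, and 0.105, 1.53 and 3.6 RPKM in WT TAC. Psat1 was thus above Psph per length in KO TAC and below it in WT TAC, and Phgdh was lowest in both.

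Shmt2 encodes the mitochondrial serine hydroxymethyltransferase, which passes the side carbon of serine to folate. It lies on chromosome 10, from 127517123 to 127522444 on the minus strand. KO TAC had 24.2, 32.6, 30.7 and 28.2 CPM, and WT TAC 25.1, 24.5, 24.7, 22 and 22.7 CPM. KO sham had 29.4, 28.8 and 44.6 CPM, and WT sham 22.2, 24.2 and 19.6 CPM. The sham groups did not overlap, as was so for 22.4% of all genes tested, and KO sham 350, a library that stood apart, had the highest value.

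Shmt2 passed in KO sham against WT sham, where the log2 fold change was 0.59 ± 0.17 (edgeR adjusted p = 0.0333). Without KO sham 350 it was 0.37 (edgeR adjusted p = 0.11), and without KO sham 348 and 350 together 0.34. The call was also lost without WT sham 131, 132 or 133 (edgeR adjusted p = 0.106, 0.0756 and 0.0931), with limma voom (0.231) and in a fit of the compared groups alone (0.176). In KO TAC against WT TAC the log2 fold change was 0.28 ± 0.13 (edgeR adjusted p = 0.114), and it passed without KO sham 350 (edgeR adjusted p = 0.0301), without KO sham 348 and 350 together (0.0269) and in a fit of the compared groups alone (0.0273). Shmt1, the cytosolic form of the enzyme, was not tested, at 0.709 CPM on average in KO TAC, 0.203 in KO sham, 0.259 in WT TAC and 0.643 in WT sham.

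Mthfd2 encodes the mitochondrial methylenetetrahydrofolate dehydrogenase that follows Shmt2, and is known for low levels in resting adult tissue and high levels in dividing cells. It lies on chromosome 6, from 83305704 to 83317604 on the minus strand. KO TAC had 5.74, 6.16, 5.42 and 8.13 CPM, and WT TAC 2.72, 1.81, 1.2, 2.63 and 0.962 CPM. KO sham had 1.9, 2.74 and 1.85 CPM, and WT sham 0.849, 1.03 and 3.01 CPM. Each KO TAC library lay above each library of the other 3 groups, and those 3 groups overlapped. The counts behind these values were 53 to 72 in KO TAC, and as few as 4 in WT sham 133.

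The log2 fold change of Mthfd2 in KO TAC against WT TAC was 1.73 ± 0.36 (edgeR adjusted p = 0.000853), and between 1.59 and 1.92 with any 1 library left out. For KO TAC against KO sham it was 1.53 ± 0.43 (edgeR adjusted p = 0.0297). That call was lost without KO sham 348 (0.0637) or KO TAC 351, 352, 353 or 354 (0.051, 0.0644, 0.0537 and 0.0764). The call was also lost with limma voom (0.266) and in a fit of the compared groups alone (0.0619). Without KO sham 348 and 350 together the log2 fold change was 1.21. For KO sham against WT sham it was 0.89 ± 0.54 (edgeR adjusted p = 0.331). That is a fold of 1.85, while the ratio of the mean CPM was 1.33. WT sham 133, at 3.01 CPM, lay above each KO sham library. The difference of the TAC effects was 0.84 ± 0.66 (edgeR adjusted p = 0.594), so no greater effect of TAC in KO than in WT mice was shown for Mthfd2. Without KO sham 348 and 350 the sham value was 1.28 and the difference 0.45.

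The other genes of serine, glycine and folate metabolism numbered 27, of which 24 were tested. In KO TAC against WT TAC 8 were higher and 2 lower, while 29.8% of all genes passed. Their median log2 fold change was 0.09, beside -0.02 over all genes. In KO sham against WT sham 0 were higher and 1 was lower. Tyms, thymidylate synthase, was higher in KO TAC than in WT TAC, by a log2 fold change of 0.62 ± 0.17. Mat2a, which makes the methyl donor S-adenosylmethionine, was higher by 0.63 ± 0.13 on the log2 scale. Aldh1l1, the cytosolic enzyme that oxidises the folate carbon unit, was lower at -1.28 ± 0.20 (edgeR adjusted p = 5.95e-05), with 8.3 CPM on average in KO TAC and 20.1 CPM in WT TAC. In sham hearts it was also lower in KO, at -0.97 ± 0.26 (edgeR adjusted p = 0.0224). That call was lost without WT sham 132 (0.0661), WT sham 133 (0.0843) or KO sham 348 (0.0554). It was also lost with limma voom (0.178) and in a fit of the compared groups alone (0.0865).

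**Figure D4:**
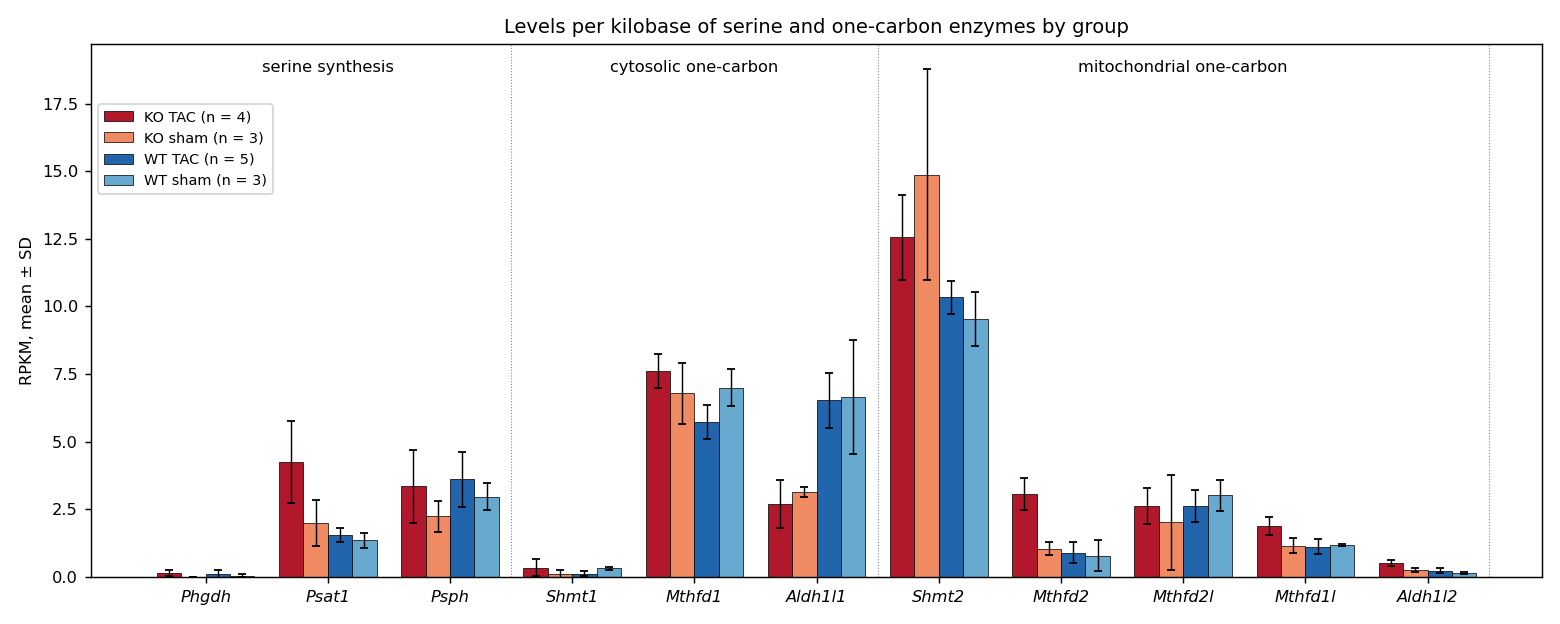
Mean RPKM with SD whiskers (vertical axis, linear from 0) of 11 enzymes of serine synthesis and of the cytosolic and mitochondrial folate routes, by group (4 KO TAC, 3 KO sham, 5 WT TAC and 3 WT sham libraries). Psat1 and Mthfd2 are highest in KO TAC, at 4.24 and 3.07 RPKM, Aldh1l1 is lower in both KO groups, and Phgdh and Shmt1 are close to 0 in each group.

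Target genes of the response outside the 10 moved in both directions. Of 23 tested, 6 were higher and 2 lower in KO TAC than in WT TAC, while 29.8% of all genes passed. Their median log2 fold change was 0.11. In KO sham against WT sham 4 were higher and 0 lower, while 9.21% of all genes passed. With 1 library left out that count ran from 2 to 8. Gdf15, a stress cytokine induced by ATF4 and p53, averaged 70.8 ± 16.6 CPM in KO TAC and 1.75 ± 0.389 CPM in WT TAC (SD), a log2 fold change of 5.33 ± 0.22 (edgeR adjusted p = 1.4e-13). Aldh18a1, of proline synthesis, and Bbc3, which encodes the p53-induced death protein PUMA, were higher by 1.11 ± 0.17 and 0.87 ± 0.14 on the log2 scale. Atf3, a stress transcription factor, was higher by 0.89 ± 0.18 (edgeR adjusted p = 0.000685). Herpud1, of endoplasmic reticulum protein degradation, was lower at -0.64 ± 0.10. Ddit3, which encodes the ATF4 partner CHOP, did not pass, at -0.28 ± 0.22 (edgeR adjusted p = 0.367), with 6.57 CPM on average in KO TAC and 7.94 CPM in WT TAC.

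Amino acid transporters under ATF4 were the pathway list with the highest median log2 fold change in KO TAC against WT TAC of the 10 shown in the plot of list genes. The median was 0.53 over 9 tested genes, of which 4 were higher and 1 lower, while 29.8% of all genes passed. Slc7a5, the light chain of the leucine transporter LAT1, averaged 43 CPM in KO TAC and 17.4 CPM in WT TAC, a log2 fold change of 1.30 ± 0.15 (edgeR adjusted p = 1.33e-06). In sham hearts it averaged 33.6 CPM in KO and 14.5 CPM in WT, at 1.11 ± 0.20 (edgeR adjusted p = 0.00135). With 1 library left out Slc7a5 stayed between 0.86 and 1.37 in this comparison. Its call there was not kept under all alternative runs. Its heavy chain partner Slc3a2 was lower in KO TAC, at -0.52 ± 0.11, with 94.8 CPM on average in KO TAC and 135.8 CPM in WT TAC. Slc38a2 and Slc1a5, which carry neutral amino acids such as glutamine and serine, were higher by 0.65 ± 0.09 and 1.01 ± 0.17. Slc7a1, a cationic amino acid transporter, was higher by 0.53 ± 0.09 on the log2 scale.

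Of 12 tested tRNA synthetases known as ATF4 targets, 1 was higher (Iars) and 1 lower (Wars) in KO TAC than in WT TAC, and of 8 other synthetases also 1 was higher (Vars) and 1 lower (Dars), while 29.8% of all genes passed. With 1 library left out these counts ran from 1 to 4 and from 1 to 3. The Wars call was lost without KO TAC 351, 352 or 353 (0.057, 0.0937 and 0.0676). The Dars call was lost in 5 single-library exclusions, with an adjusted p of up to 0.129 without KO TAC 351, and on all libraries with RLE factors (0.0532), in DESeq2 (0.0526) and with a filter of 5 CPM in 3 libraries (0.0507). Of 17 genes for the eIF2 kinases, eIF2 and its regulators, 3 were higher and 1 lower. Eif2ak4, which encodes GCN2, was higher by 0.68 ± 0.08 on the log2 scale (edgeR adjusted p = 1.97e-06), with 82.8 CPM on average in KO TAC and 51.9 CPM in WT TAC. Eif2ak2 (PKR) and Eif2ak3 (PERK) were higher by 0.29 and 0.25, and the Eif2ak3 call was lost without any of 7 libraries, with an adjusted p of up to 0.107. In KO TAC against KO sham the members of these 5 lists that passed were Gdf15, Cebpg, Slc38a2, Tars and Sars, each higher. The calls on Cebpg, Tars and Sars were lost without some single libraries, with an edgeR adjusted p of up to 0.126, 0.189 and 0.132.

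**Figure D5:**
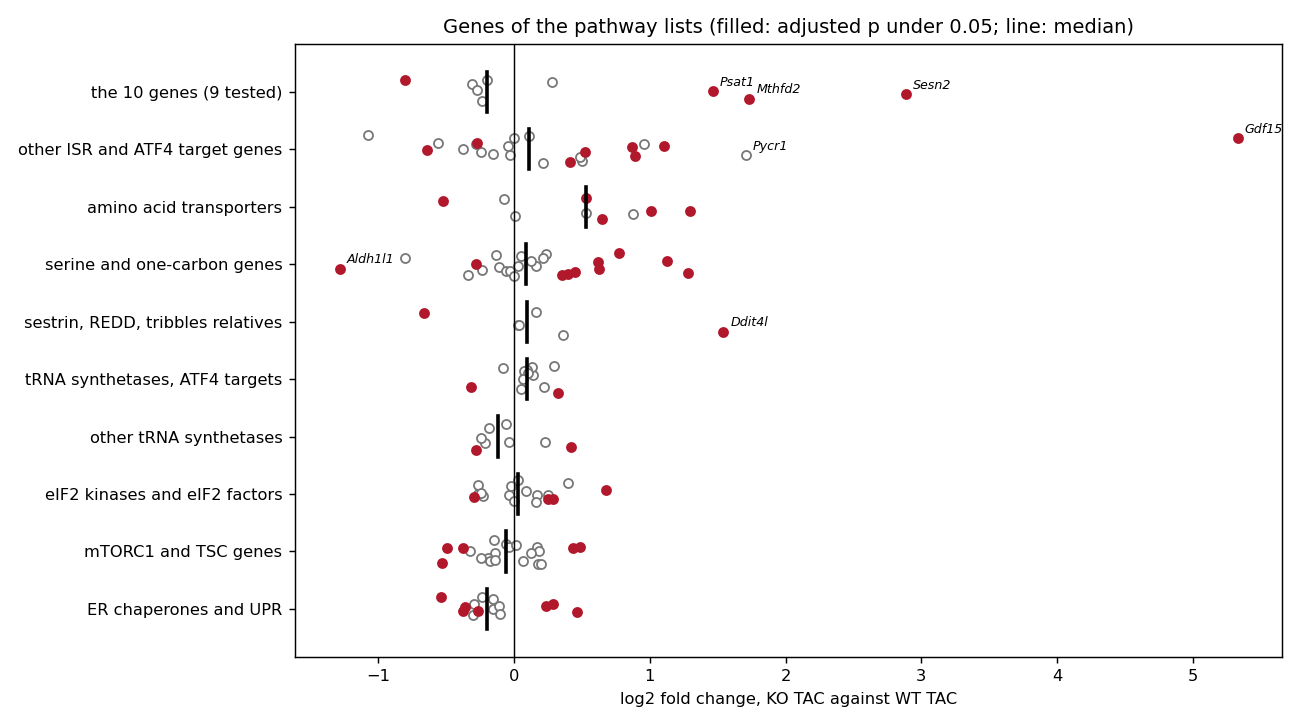
Log2 fold change in KO TAC against WT TAC (horizontal axis) of each tested gene of the 10 members and of 9 related gene lists, filled red where the adjusted p was under 0.05, with a line at each median. Gdf15 at 5.33 and Sesn2 at 2.89 lie farthest to the right, the transporters have a median of 0.53, and every list holds genes on both sides of 0.

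Per length, averaged over all 15 libraries, the 10 genes ordered as Atf4 at 122.2 RPKM, Ddit4 at 97.3, Shmt2 at 11.7, Trib3 at 10.9, Sesn2 at 10.6, Asns at 8.89, Psat1 at 2.31, Chac1 at 2.28, Mthfd2 at 1.49 and Phgdh at 0.081 RPKM. In KO TAC Sesn2 came next after Atf4 and Ddit4, at 21.1 RPKM, and in WT TAC it came after Asns, at 2.84 RPKM. Atf4 at 109.8 ± 15.4 and Ddit4 at 79.2 ± 18 RPKM were the neighbours at the top in KO TAC. In WT TAC their values, 125.9 ± 6.75 and 137.7 ± 66.8 RPKM, differed by less than the spread of Ddit4. Trib3 and Asns in WT TAC, at 11.9 ± 1.49 and 10 ± 1.91 RPKM, differed by less than the SD of Asns, and so did Asns and Shmt2, at 10.3 ± 0.6 RPKM.

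Profiles over the 15 libraries were compared by the mean absolute difference of log2 CPM after centring each gene on its mean, as a description over libraries that share depth and group. Among the members Atf4 and Trib3 were nearest to each other, at 0.19, and Psat1 and Mthfd2 were each other's nearest, at 0.417. Sesn2 was far from the rest, with Mthfd2 nearest at 0.88 and Ddit4 farthest at 1.75. The 5 genes outside the members nearest to their mean profile were Dync1li2 at 0.085, Osbpl5 at 0.0852, Jak2 at 0.0872, Cpped1 at 0.0876 and Slc23a2 at 0.0929. Their log2 fold changes in KO TAC against WT TAC lay between 0.37 and 0.54. The members ran from Sesn2 at 2.89 to Ddit4 at -0.80 in that comparison, with a median of -0.20. Their mean profile is thus not the profile of each member. The genes nearest to single members were looked up after the values were seen. Nearest to Sesn2 were Eda2r at 0.265, Slc19a2 at 0.341 and Phlda3 at 0.364, and nearest to Ddit4 were Irx3 at 0.241, Rasd1 at 0.255 and Tsc22d3 at 0.255. Eda2r averaged 195.3 CPM in KO TAC, 149.4 in KO sham, 33.5 in WT TAC and 35.2 in WT sham.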

How the data were processed

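The authors deposited 1 table of counts, the reads assigned to each gene in each of 15 libraries. Per the file headers it was made with featureCounts 1.6.2, strand setting 2 and UCSC gene models, with no option for multimapping or multiply overlapping reads. HISAT2 2.1.0 and the build mm10 are named in the submitters' processing notes. Groups were taken from the labels. The sample titles name no batch, and the fit had no batch term. The WT mice are numbered 131 to 138 and the KO mice 348 to 354. Any difference between these number series cannot be told apart from genotype.

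From the counts, CPM and RPKM were computed with TMM-scaled library sizes (factors 0.9599 to 1.031). edgeR 4.0.16 in R 4.3.3 was run with filterByExpr (minimum count 10), glmQLFit on all 15 libraries with 1 coefficient per group, and two-sided glmQLFTest for 5 comparisons. Benjamini-Hochberg adjustment ran over 12471 genes, with a threshold of 0.05. Fold changes are those of the edgeR fit and can differ from ratios of mean CPM. For Sesn2 in WT TAC against WT sham the fold was 0.855 and the ratio 0.995. The fit was also run on simulated counts with an equal spread for all genes, where only the recovery of planted changes was required. That run does not show error control for libraries as uneven as these. Levels carry the SD and fold changes the SE, and their 95% intervals, from the spread between mice, while floors of 3 counts cover counting error alone. No 2 libraries of a group agreed within sampling noise.

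The members and lists were chosen with earlier results of these data known. Named genes were the members, up to 4 genes per list with the smallest p among those called, a fixed set (Ddit3, Atf3, Gdf15, Psph, Shmt1, Sesn1 and Trib1) and the 5 nearest profiles. Genes named outside this rule (Sesn3, Slc3a2, Rgs5, Creld2, Manf, Edem1, Eda2r, Slc19a2, Phlda3, Irx3, Rasd1, the neighbours of Sesn2 and genes listed for a promoter match) were chosen after their values were seen. A gene that the rule named is not reported here. Of 241 list entries 238 matched by symbol and 3 by synonym. Alternatives were RLE factors, DESeq2 1.42.0, voom of limma 3.58.1 with quality weights, other count filters, a fit with the groups compared alone and leaving out libraries.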

Additional observations from a re-analysis of the deposited data

Results flagged for a closer look

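Psat1 had 16.2 CPM in KO TAC 352, far from the other KO TAC libraries at 8.49 to 8.93 CPM. Shmt1 had 1.68 CPM in the same library, while the KO TAC median was 0.418 CPM. Of 34 such checks over 17 genes in the groups of 4 and 5 libraries, 2 gave a library this far from its group, and chance gives about 1 in 20. The effect of TAC on Gdf15 differed between KO and WT mice, by 1.75 ± 0.40 on the log2 scale (edgeR adjusted p = 0.0438). Gdf15 averaged 70.8 CPM in KO TAC and 27.4 CPM in KO sham, and 1.75 CPM in WT TAC and 2.49 CPM in WT sham. That call was lost in 12 of the 15 exclusions of 1 library, with an adjusted p of up to 0.193 without WT sham 131.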

How the results depend on the processing

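No value of a member that passed the test changed direction under any alternative run. The calls on Sesn2 in KO against WT, in TAC and in sham hearts, and on Psat1 and Mthfd2 in KO TAC against WT TAC were kept under each of them. Counts and values for all genes and for lists were added to the alternatives after the data were seen. The count of members called in KO TAC against KO sham, 2, became 0 with limma voom and 0 in a fit of the compared groups alone. It ran from 0 to 2 with 1 library left out. In KO sham against WT sham the count of 2 became 1 and 1 in the same settings and ran from 1 to 3 with 1 library left out. Over all genes, the 323 calls in WT TAC against WT sham became 507 with DESeq2, 1146 with voom and 723 in the fit of the compared groups. With 1 library left out they ran from 109 to 543. The 1196 calls in KO TAC against KO sham became 295 with voom, 374 in the fit of the compared groups and 191 without KO sham 348 and 350 (695 to 2372 with 1 library left out). The 1148 calls in KO sham against WT sham became 463, 289 and 394 in these settings (505 to 2014 with 1 left out). The 86 calls on the difference of the TAC effects became 317 with DESeq2 and 174 without a count filter (25 to 764 with 1 left out). The cause was not tested. Another scaling moved the median of all genes by at most 0.0318 on the log2 scale. No paired analysis was possible because the mouse numbers of the groups are all different. Depth limits Phgdh, with 26 counts over all libraries, and Mthfd2 and Chac1, with 450 and 551, as well as each value of WT sham 133.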

Other observations

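Genes of neighbouring stress programmes were also counted, beside the 29.8% of all genes that passed in KO TAC against WT TAC. Of 14 tested genes for chaperones of the endoplasmic reticulum and its unfolded protein response, 3 were higher and 4 lower in KO TAC than in WT TAC, with a median log2 fold change of -0.19. With 1 library left out that count of 7 ran from 3 to 9, and the calls on Ern1, Calr, Creld2, Manf and Edem1 were each lost without some single libraries, with an adjusted p of up to 0.0764. Xbp1, a transcription factor of that response, was lower at -0.37 ± 0.08 (edgeR adjusted p = 0.00174), and Atf6, a sensor of it, was higher by 0.29 ± 0.08 (edgeR adjusted p = 0.0106). A list of 21 tested genes covered mTORC1, the TSC complex that REDD1 acts through, and the CASTOR, GATOR and Rag genes upstream of mTORC1. Of these, 2 were higher and 3 lower in KO TAC than in WT TAC. Rptor, the scaffold of mTORC1, was higher by 0.43 ± 0.08 (edgeR adjusted p = 0.000186), and Rheb, its activator, was lower at -0.49 ± 0.10 (edgeR adjusted p = 0.000517). Of 10 genes for mitochondrial proteases and chaperones, 0 were higher and 2 lower, Yme1l1 and Dnaja3, both lost without single KO TAC libraries, with an adjusted p of up to 0.0681 and 0.0756.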
